A study of Mus musculus with 8 samples.

Results

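The Wnt genes of the embryonic mouse cortex were described in 8 whole-transcript arrays, 4 of wild-type embryos and 4 of bitransgenic embryos with induced VEGF-A. The set was a list of 45 named Wnt ligands, receptors, effectors, feedback genes and inhibitors, and a gene entered when the platform annotation gave a probe set that symbol and no other. This held for 44 of the 45 genes, out of 19938 genes on the arrays, and Tcf7 was not analysed here. Wnt4 was read by 2 probe sets, which were averaged, and each other gene by 1. The list was drawn up by name with earlier results of these data known.

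All embryos were at embryonic day 16, of a mixed strain background, and the tissue is labelled brain cortex. The VEGF group carried GFAP-tTA, a tetracycline-controlled transactivator under the promoter of a glial gene, together with TetO-VEGF-A164, the responder that encodes the growth factor. The control group is labelled wild type and described as lacking TetO-VEGF-A164. The labels do not say whether control embryos carried GFAP-tTA, so the growth factor, the transactivator and the insertions cannot be told apart. Nothing in the labels says whether the 4 arrays of a group came from separate litters or from single embryos, so each p-value speaks only of array-to-array spread, which may be technical.

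Wnt proteins are secreted lipid-modified ligands that bind Frizzled receptors and the co-receptors Lrp5 and Lrp6. In the canonical branch this stabilises beta-catenin, which enters the nucleus and activates target genes with TCF and LEF factors, among them negative feedback genes such as Axin2. In the developing forebrain, Wnts of the cortical hem pattern the hippocampus and medial cortex, Wnt signals act on radial glia and neurons, and Wnt7a and Wnt7b from neural cells drive vessel growth and blood-brain barrier formation through Adgra2 and Reck on endothelial cells.

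Before the values, the stretches upstream of 3 of these genes are shown because they are among the 7 Wnt genes at an unadjusted limma p under 0.05, though none passed over all genes: the mean was lower in the VEGF-labelled arrays for Wnt7a and Dact1 and higher for Wnt8b, whose groups overlapped. Znrf3, Wnt7b and Fzd2, described further on, were not matched in the table, and no sequence is shown for them. Fzd5 was matched, with 32 CG pairs before its start, but its stretch is not shown. Each stretch is the 250 bases before the start in the RefSeq promoter table (GRCm38.p6), which held 28 of the 44 genes, and every CG pair is in capitals. Wnt7a lies at chr6:91411354-91411603, minus strand. Dact1 lies at chr12:71309634-71309883, plus strand. Wnt8b lies at chr19:44493222-44493471, plus strand.
Wnt7a: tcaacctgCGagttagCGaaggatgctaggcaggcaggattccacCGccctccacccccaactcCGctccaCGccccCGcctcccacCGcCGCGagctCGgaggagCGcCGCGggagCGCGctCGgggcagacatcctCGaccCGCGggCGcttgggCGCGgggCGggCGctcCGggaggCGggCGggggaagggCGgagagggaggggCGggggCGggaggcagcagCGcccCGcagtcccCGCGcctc
Dact1: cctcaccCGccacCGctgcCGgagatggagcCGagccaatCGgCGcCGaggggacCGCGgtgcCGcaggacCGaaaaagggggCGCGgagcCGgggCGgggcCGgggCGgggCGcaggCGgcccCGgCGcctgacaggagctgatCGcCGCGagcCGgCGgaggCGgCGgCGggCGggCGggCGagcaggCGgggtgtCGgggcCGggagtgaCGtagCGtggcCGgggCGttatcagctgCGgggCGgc
Wnt8b: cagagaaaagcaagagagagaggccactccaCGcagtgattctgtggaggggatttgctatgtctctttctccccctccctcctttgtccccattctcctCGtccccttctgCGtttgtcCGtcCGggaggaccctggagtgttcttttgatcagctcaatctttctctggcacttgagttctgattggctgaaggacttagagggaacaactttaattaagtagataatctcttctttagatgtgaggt
The motif CG, which reads the same on both strands, occurred 34 times before Wnt7a, 41 times before Dact1 and 5 times before Wnt8b. Of all 32851 windows of this length in the table, 92.1% held at least 1 CG and the median was 6. As many CG pairs as Wnt7a were held by 3.53% of windows and as many as Dact1 by 1.09%. The 33 windows of the Wnt genes had a median of 23 CG pairs, from 2 in a Rnf43 window to 48 before Wnt9a. The TCF/LEF letters searched on both strands were CTTTGAA and CTTTGAT and also CTTTGTA and CTTTGTT. A match was found before Dkk1, Fzd7, Wnt11 and Wnt5b, which is 4 of 28 genes or 14.3%, beside 16.8% of all genes in the table. Dkk1 held 2 matches, CTTTGAA and CTTTGTT. These are letter matches in 1 short window and say nothing of binding, and the arrays measured RNA only.

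Values are the authors' log values, read as log2, in which each probe set is set relative to its own median over the 8 arrays. They give differences between arrays but no level, so genes cannot be ranked by abundance and dim genes cannot be recognised. For the same reason the cortical markers Emx1, Tbr1 and Neurod6 could not show whether the tissue label holds. Their mean lay between -0.057 and 0.14 in control and was -0.34 in VEGF 1, -0.41 in VEGF 2, 0.038 in VEGF 3 and 0.12 in VEGF 4. Vegfa differed by 0.053 with an SE of 0.0506 (limma, adjusted p = 0.748), so it does not check the labels, and directions below are those of the VEGF-labelled arrays. By Xist and Y-linked genes, control 3, VEGF 2 and VEGF 3 were female. In bulk tissue, fewer cells of a type and less RNA per cell cannot be told apart.

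No Wnt gene passed the test. With limma and Benjamini-Hochberg adjustment over all genes, 0 of the 44 had an adjusted p under 0.05, beside 0% of all genes, and the lowest adjusted p among them was 0.243. At an unadjusted limma p under 0.05 there were 7 of 44, or 15.9%, beside 12.5% of all genes. Of these, Wnt8b and Znrf3 were higher, beside 4.62% of all genes, and Wnt7a, Wnt7b, Fzd2, Fzd5 and Dact1 were lower, beside 7.84%. The methods' t-test gave 3 of 44, or 6.82%, at its unadjusted threshold, beside 10.6% of all genes, and 0 after adjustment. In 3 of the 44, Wnt7a, Dact1 and Znrf3, the ranges of the 2 groups did not overlap, which is 6.82% beside 6.84% of all genes, so that this share was that of the background. Of these, Znrf3 was higher, beside 2.13% of all genes, and Wnt7a and Dact1 were lower, beside 4.71%. The median difference was 0.020 over the Wnt genes and -0.010 over all genes, with 26 higher, beside 43.3% of all genes, and 18 lower, beside 56.7%. More than 0.2 on the log2 scale separated the groups in 5 genes or 11.4%, beside 5.60% of all genes. Wnt3 and Wnt8b were above 0.2, beside 2.66% of all genes, and Wnt7a, Wnt7b and Dact1 below -0.2, beside 2.94%. Every difference below is therefore one that did not pass over all genes unless an exception is given.

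**Figure D1:**
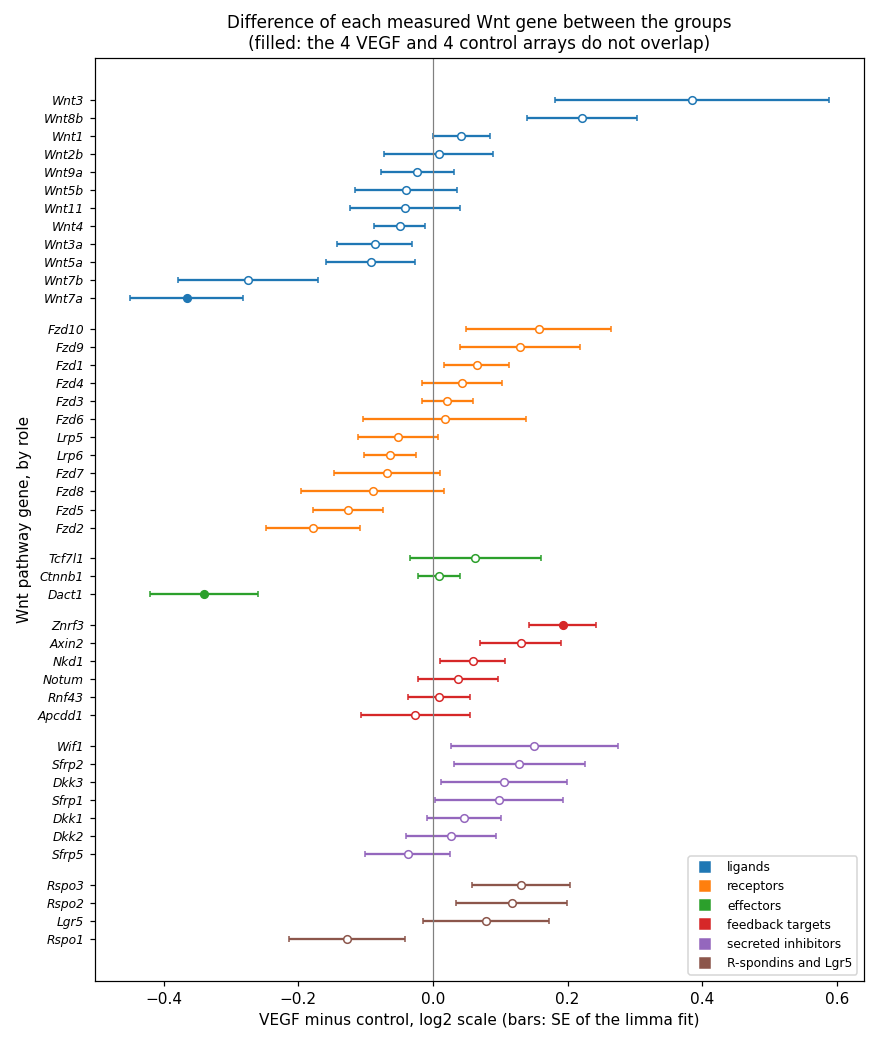
The difference VEGF minus control on the log2 scale (x axis) is plotted for each of the 44 Wnt genes (y axis, ordered by role), with bars for the SE of the limma fit and filled points where the 4 VEGF and 4 control arrays do not overlap. The points run from -0.37 for Wnt7a to 0.38 for Wnt3, and only Wnt7a, Dact1 and Znrf3 are filled.

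Among the 12 ligands, 4 were higher, beside 43.3% of all genes, and 8 lower, beside 56.7%, with a median difference of -0.041. Wnt7a, which is made by cortical progenitors and acts on vessels and synapses, was the gene of smallest p among the 44. Its values were 0.26, 0.040, 0.13 and 0.18 in control 1 to 4 and -0.43, -0.27, -0.12 and -0.040 in VEGF 1 to 4. Each VEGF-labelled array was below each control array, with VEGF 1 lowest and VEGF 4 nearest to control. The mean was 0.15 ± 0.090 in control and -0.22 ± 0.17 in VEGF (SD, n = 4 each). VEGF minus control was -0.37 (SE 0.0844), which is 0.776-fold if the base is 2. Limma gave p = 0.00183 and an adjusted p of 0.243, and by exact two-sided permutation p was 0.0286, the smallest that 4 against 4 arrays allow.

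Wnt7b, the close relative of Wnt7a that cortical neurons also make, was low in only part of the VEGF group. It was at 0.094, -0.028, 0.028 and 0.055 in control 1 to 4, and at -0.44, -0.44, -0.11 and 0.037 in VEGF 1 to 4. VEGF 1, VEGF 2 and VEGF 3 lay below every control array, and VEGF 4 lay within the control range. The difference was -0.28 with an SE of 0.104 (limma, p = 0.0262, adjusted p = 0.339, and exact permutation p = 0.0857). Projection neuron markers, of which 9 of 10 were measured, had a list mean of -0.37, -0.42, -0.17 and 0.041 in VEGF 1 to 4, against -0.011 to 0.23 in control, and all 9 were lower. The part of these cells in the Wnt7 values was not tested.

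The endothelial partners of Wnt7 differed little between the groups. Adgra2, the adhesion receptor that works with Wnt7, lay between -0.19 and 0.057 in control and between -0.33 and 0.049 in VEGF, a difference of -0.011 with an SE of 0.0892 whose sign turned in several alternatives. Reck, the membrane protein that binds Wnt7 for that receptor, differed by -0.034 with an SE of 0.0709 and also turned sign without VEGF 3. Adgra2 was lowest in VEGF 3, where the mean of 10 endothelial markers was -0.22 as well, against -0.16 to 0.11 for control and 0.022 to 0.073 for VEGF 1, VEGF 2 and VEGF 4. The part of vessel cells in these values was not tested.

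Wnt8b, a ligand of the cortical hem and medial pallium, was the ligand of smallest p on the higher side. Control values were -0.41, -0.099, 0.016 and -0.21, and the VEGF values were 0.015, 0.11, -0.015 and 0.079. Control 3 lay within the VEGF range and the other 3 control arrays lay below it, with control 1 far down. The difference was 0.22 with an SE of 0.082 (limma, p = 0.0241, adjusted p = 0.334, and exact permutation p = 0.0857), and without control 1 it was 0.14. Other signals of the hem showed smaller differences of either sign. Wnt2b differed by 0.0087, Wnt3a by -0.087, Wnt5a by -0.093 and Wnt9a by -0.023, and of all 8 hem signals, R-spondins included, 4 were higher and 4 lower, with list means of -0.059 to 0.057 in control and -0.064 to 0.076 in VEGF. Hem markers outside the pathway, 6 of 7 measured, had list means from -0.13 to 0.15 in control and from -0.17 to 0.038 in VEGF.

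Wnt3, a canonical ligand of the early embryo and of the dorsal thalamus, had the largest difference of any Wnt gene here and was picked out after its values were seen. It was at -0.19, 0.27, -0.18 and -0.23 in control 1 to 4, and at 0.67, 0.62, 0.18 and -0.26 in VEGF 1 to 4. VEGF 1 and VEGF 2 stood highest and control 2 came next, while VEGF 4 was the lowest of all 8 arrays. The difference of 0.38 had an SE of 0.203 (limma, p = 0.0903, adjusted p = 0.490, and exact permutation p = 0.257), less than the SD of 0.43 within the VEGF group. Among the ligands not yet named, Wnt1 differed by 0.042, Wnt4 by -0.050, Wnt5b by -0.040 and Wnt11 by -0.041, each by less than the SD of at least 1 of its groups.

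**Figure D2:**
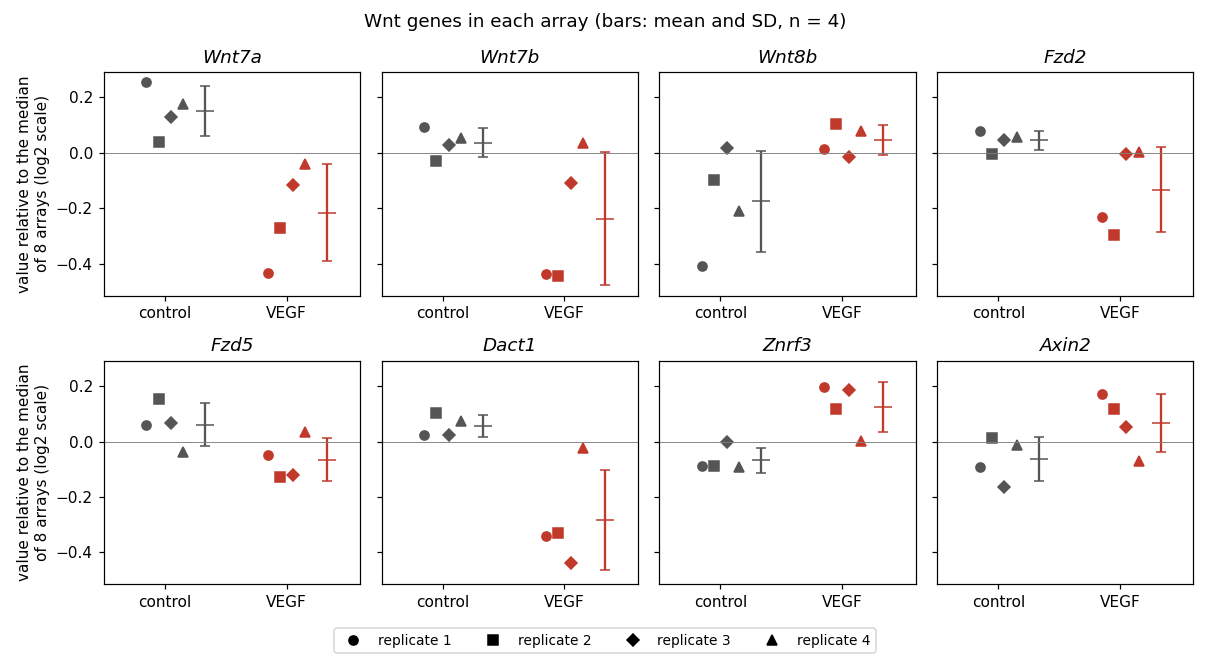
Values relative to the median of the 8 arrays on the log2 scale (y axis) are shown for 8 Wnt genes in control and VEGF arrays (x axis), 1 marker shape per replicate number, with the mean and SD (n = 4) beside each group. Wnt7a and Dact1 lie wholly below control and Znrf3 wholly above it in the VEGF arrays, and the VEGF 4 point at -0.024 for Dact1 stands apart from the other 3 VEGF arrays.

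The 12 receptors were split evenly, 6 higher and 6 lower, beside 43.3% and 56.7% of all genes. Their median difference was -0.017 and none was beyond 0.2, beside 5.60% of all genes. Fzd2, a Frizzled receptor of neural progenitors used in canonical and other branches, was the receptor of smallest p. It was at 0.079, -0.0028, 0.047 and 0.058 in control and at -0.23, -0.30, -0.0058 and 0.0028 in VEGF. VEGF 1 and VEGF 2 stood low, and VEGF 3 and VEGF 4 lay close to control 2. The difference was -0.18 with an SE of 0.0701 (limma, p = 0.0312, adjusted p = 0.355, and exact permutation p = 0.0571). Fzd5 was at 0.059, 0.15, 0.068 and -0.036 in control and at -0.049, -0.13, -0.12 and 0.036 in VEGF, a difference of -0.13 with an SE of 0.0523 (limma, p = 0.0391, adjusted p = 0.377, and exact permutation p = 0.0571). In Fzd5 only control 4 and VEGF 4 made the groups overlap. The co-receptor Lrp6 was at 0.0041, -0.0041, 0.11 and 0.044 in control and at -0.070, 0.023, -0.035 and -0.022 in VEGF, a difference of -0.064 with an SE of 0.0383. The other co-receptor, Lrp5, differed by -0.052.

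The remaining Frizzled genes differed by between -0.089 and 0.16, and none had groups apart. Fzd10, a receptor of the dorsal midline, reached 0.43 in VEGF 1 and 0.20 for control 2, the other 6 arrays running from -0.14 to 0.11. Fzd8, a receptor of cortical radial glia, was at -0.31 in VEGF 1 and -0.23 in VEGF 2 but at 0.18 in VEGF 3, and Fzd7 ran from -0.20 in VEGF 1 to 0.11 in VEGF 3, with control 2 higher still at 0.19. Fzd9, known from the hippocampus, was highest in VEGF 3 at 0.30 and lowest in control 1 at -0.20. Fzd6 was at -0.45 in VEGF 3 against 0.061 to 0.16 in the other VEGF arrays. Fzd4, the receptor for norrin on vessels, was at 0.22 in VEGF 2 and between -0.059 and 0.069 elsewhere. The arrays that stood out were not the same from gene to gene.

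Of the effectors, Dact1 stood apart from the others. It encodes a Dishevelled-binding protein that modulates Wnt signals and is made by differentiating neurons. Its values were 0.025, 0.10, 0.024 and 0.074 in control 1 to 4 and -0.34, -0.33, -0.44 and -0.024 in VEGF 1 to 4. The 4 control arrays lay close together, 3 VEGF arrays lay far below them, and VEGF 4 lay just outside their range. The mean was 0.057 ± 0.039 in control and -0.28 ± 0.18 in VEGF (SD, n = 4 each). VEGF minus control was -0.34 (SE 0.0799), which is 0.790-fold. Limma gave p = 0.00207 and an adjusted p of 0.243, and the exact permutation p was 0.0286. Without VEGF 4 the difference was -0.43 and Dact1 passed over all genes (limma, adjusted p = 0.0347), 1 of 10 genes to do so. As VEGF 4 was the VEGF array nearest to control for Dact1, leaving it out had to enlarge the difference. The adjusted p lay between 0.0347 and 0.619 over the alternatives. All 10 markers of the ventral forebrain and its interneurons were lower too, with list means of 0.099 to 0.39 in control. In VEGF 1 to 4 these means were -0.27, -0.16, -0.88 and -0.22. They were lowest in VEGF 3 as Dact1 was, but stayed below control in VEGF 4, where Dact1 lay near control. The projection neuron list was at -0.37, -0.42, -0.17 and 0.041 in VEGF 1 to 4, against -0.011 to 0.23 in control. The part of these cell types in the Dact1 difference was not tested.

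Beta-catenin itself varied least. Ctnnb1 was at -0.021, -0.0026, 0.034 and -0.0023 in control and at -0.0045, 0.042, 0.0042 and 0.0023 in VEGF, a difference of 0.0087 with an SE of 0.0309. Tcf7l1, a TCF factor that acts mostly as a repressor in progenitors, was at -0.17, -0.048, 0.045 and 0.059 in control and at -0.045, -0.20, 0.27 and 0.11 in VEGF. The difference of 0.063 with an SE of 0.0973 was smaller than the SD of 0.20 within VEGF.

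Feedback genes are induced by the canonical pathway. Of the 6, 5 were higher, beside 43.3% of all genes, with a median difference of 0.048. Only Znrf3 had an unadjusted limma p under 0.05, beside 12.5% of all genes, and whether canonical signalling differed was not tested. Znrf3, a membrane ubiquitin ligase that removes Frizzled from the cell surface, was at -0.090, -0.090, -0.0012 and -0.090 in control and at 0.20, 0.12, 0.19 and 0.0012 in VEGF. The groups did not overlap, but control 3 and VEGF 4 nearly touched. The mean was -0.068 ± 0.044 in control and 0.13 ± 0.090 in VEGF (SD, n = 4 each). VEGF minus control was 0.19 (SE 0.0495), which is 1.14-fold (limma, p = 0.00354, adjusted p = 0.243, and exact permutation p = 0.0286). Markers of radial glia, 8 of 10 higher, had list means of -0.14 to 0.0085 in control. In VEGF 1 to 4 these means were 0.022, 0.079, 0.20 and 0.073. Within the VEGF group they were lowest in VEGF 1, where Znrf3 was highest, and highest in VEGF 3, where Znrf3 was at 0.19. In the control group both Znrf3 and the list mean were highest in control 3. The part of radial glia in the Znrf3 difference was not tested.

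Axin2, the scaffold of the beta-catenin destruction complex and the most used readout of the canonical branch, was at -0.090, 0.012, -0.16 and -0.012 in control and at 0.17, 0.12, 0.051 and -0.071 in VEGF. VEGF 1, VEGF 2 and VEGF 3 lay above every control array and VEGF 4 lay among them. The difference was 0.13 with an SE of 0.0604 (limma, p = 0.0585, adjusted p = 0.424, and exact permutation p = 0.114). Nkd1, a Dishevelled-binding inhibitor, was at -0.092, 0.038, -0.043 and 0.015 in control and at 0.14, -0.023, -0.015 and 0.049 in VEGF, with a difference of 0.059 and an SE of 0.0482. Rnf43, the partner ligase of Znrf3, differed by 0.0090, the Wnt-deacylating enzyme Notum by 0.037 and the membrane inhibitor Apcdd1 by -0.026, each within the SD of its groups. Znrf3 and Rnf43, which act alike on Frizzled, thus gave differences of 0.19 and 0.0090, a contrast that was not tested.

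Secreted inhibitors bind Wnts or block Lrp co-receptors. Of the 7, 6 were higher, beside 43.3% of all genes, and 1 lower, beside 56.7%, with a median difference of 0.098. None had an unadjusted limma p under 0.05, beside 12.5% of all genes. Sfrp2, a Wnt-binding Frizzled-like protein, was at -0.13, 0.079, -0.054 and -0.082 in control and at 0.17, 0.30, 0.054 and -0.20 in VEGF. VEGF 2 was highest and VEGF 4 lowest of all arrays, so the difference of 0.13 with an SE of 0.097 was under the SD of 0.21 within VEGF. Wif1, another Wnt-binding inhibitor, was at 0.021, 0.12, -0.11 and -0.12 in control and at 0.53, 0.084, -0.021 and -0.084 in VEGF. Its difference of 0.15 with an SE of 0.124 came with a single high array, VEGF 1, and without it the value was 0.017. Dkk3, a divergent Dickkopf protein, was at -0.12, 0.23, -0.16 and -0.065 in control and at 0.21, 0.12, -0.099 and 0.065 in VEGF, a difference of 0.10 with an SE of 0.0934. Sfrp1, which is made by radial glia, differed by 0.098 and was highest in VEGF 3 at 0.29, without which the value was 0.019. Without VEGF 2 the difference was 0.057 for Sfrp2, and without VEGF 1 it was 0.058 for Dkk3. The Lrp-blocking Dkk1 and Dkk2 differed by 0.046 and 0.027, and Sfrp5 by -0.038.

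R-spondins raise Wnt signals by withdrawing Znrf3 and Rnf43 from the membrane, with Lgr5 as a receptor. Rspo3 was at -0.011, 0.10, -0.10 and -0.039 in control and at 0.26, 0.22, 0.011 and -0.019 in VEGF. Rspo2 was at 0.027, -0.093, -0.037 and 0.038 in control and at 0.26, 0.25, -0.083 and -0.027 in VEGF. In both, VEGF 1 and VEGF 2 stood above every control array and VEGF 3 and VEGF 4 did not. The differences were 0.13 with an SE of 0.0726 for Rspo3 and 0.12 with an SE of 0.0823 for Rspo2 (limma, adjusted p = 0.515 and 0.631). Lgr5 split the VEGF arrays in the same way, at 0.26 in VEGF 1 and 0.29 in VEGF 2 against -0.074 in VEGF 3 and -0.10 in VEGF 4. Rspo1, by contrast, was at -0.048, 0.00030, -0.00030 and 0.070 in control and at 0.016, -0.39, -0.14 and 0.028 in VEGF, a difference of -0.13 with an SE of 0.0861, and without VEGF 2 this was -0.038. Without VEGF 1 the differences of Rspo3 and Rspo2 were 0.083 and 0.064.

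**Figure D3:**
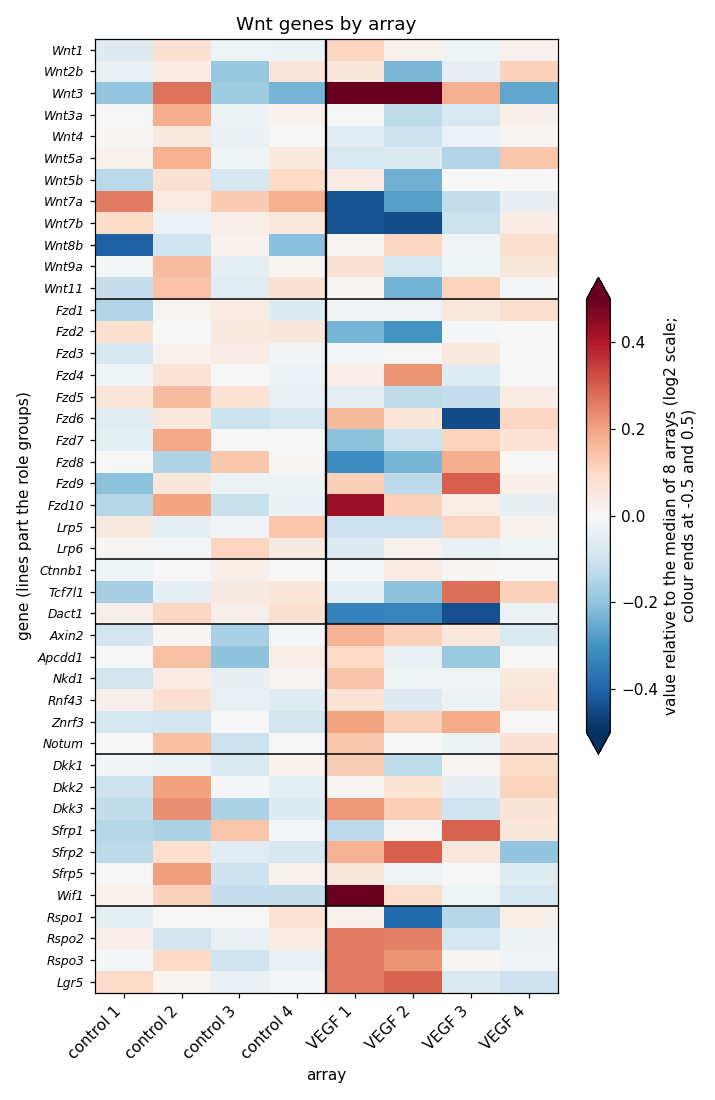
Each row is 1 of the 44 Wnt genes, grouped by role with lines between groups, each column is 1 array, and colour gives the value relative to the median of the 8 arrays on the log2 scale, with colours ending at -0.5 and 0.5. VEGF 1 and VEGF 2 hold the strongest colours, for example Wnt3 at 0.67 and 0.62 and Wnt7b at -0.44 in both, and the median absolute value of the 44 genes is 0.0403 in VEGF 4.

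The arrays of the VEGF group differed in how far their Wnt genes lay from the median. The median absolute value over the 44 genes was 0.113 in VEGF 1 and 0.117 in VEGF 2, against 0.0565 in VEGF 3 and 0.0403 in VEGF 4, and 0.0415 to 0.0782 in control. Over all genes these medians were 0.0437, 0.0758, 0.0538 and 0.0327 in VEGF 1 to 4. In VEGF 1, 14 of the 44 genes lay above the highest control array and 11 below the lowest. In VEGF 2 these counts were 11 and 19, in VEGF 3 they were 8 and 12, and in VEGF 4 they were 8 and 6. The shares over all genes were 23.3% above and 22.1% below in VEGF 1, 27.8% and 36.6% in VEGF 2, 21.6% and 34.6% in VEGF 3, and 16.3% and 23.3% in VEGF 4. Control 2 held the highest value of the 8 arrays in 14 of the Wnt genes, beside 24.4% of all genes.

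Wnt3, Lef1 and Tcf7l2 had the same highest arrays in each group as the mean of a list of thalamic markers, which mark tissue close to the cortex. The list of 7 thalamus genes, all measured and all higher, had means of -0.23, 0.22, -0.16 and -0.23 in control 1 to 4 and of 0.70, 0.60, 0.027 and -0.25 in VEGF 1 to 4. Of these genes only Foxp2 had another highest control array, control 1, at 0.13 against 0.038 in control 2. It was at -0.48 in VEGF 3. Tcf7l2, a TCF factor abundant in the thalamus, was at -0.86, 0.68, -0.47 and -0.84 in control and at 1.65, 1.59, 0.47 and -0.74 in VEGF. Lef1, the other TCF-family factor of that region, was at -0.22, 0.074, -0.24 and -0.19 in control and at 0.38, 0.37, 0.20 and -0.074 in VEGF. In these 2 genes, as in Wnt3, VEGF 1 and VEGF 2 were highest and control 2 was the highest control array. The rest of the order differed for Lef1, where VEGF 3 lay above control 2 and VEGF 4 above the other 3 control arrays. With the mean of the thalamus list as a covariate, the difference was 0.029 for Wnt3, 0.16 for Tcf7l2 and 0.19 for Lef1, against 0.38, 1.11 and 0.36 without it. The same arrays had the highest list means in each group for Cajal-Retzius, hippocampus, choroid plexus and pericyte markers. In control 2, VEGF 1 and VEGF 2 these means were 0.15, 0.31 and 0.21 for Cajal-Retzius cells and 0.21, 0.26 and 0.18 for hippocampus. For choroid plexus they were 0.25, 0.17 and 0.13, and for pericytes 0.12, 0.031 and 0.022. The genes within these lists did not move alike. For choroid plexus 7 genes were lower and 1 higher, Otx2, at 0.73 in VEGF 1 and 0.85 in VEGF 2. For Cajal-Retzius cells 4 genes were higher and 2 lower, Reln and Trp73. For hippocampus 4 were higher and 1 lower, Zbtb20, and for pericytes 1 was higher and 4 lower. The part of any of these tissues in the Wnt values was not tested.

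**Figure D4:**
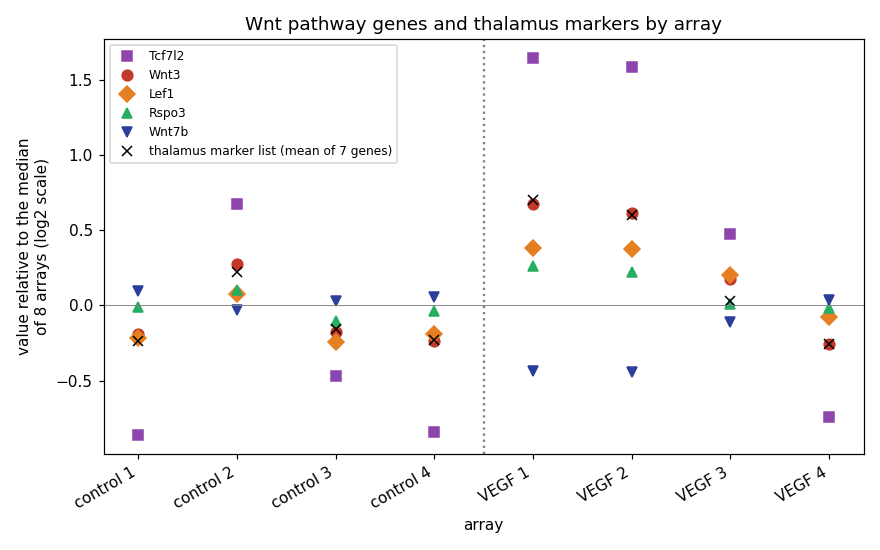
Values relative to the median of the 8 arrays on the log2 scale (y axis) are plotted for each array (x axis) for Tcf7l2, Wnt3, Lef1, Rspo3 and Wnt7b and for the mean of the 7 thalamus markers, with a dotted line between the groups. Wnt3 lies near the marker mean except in VEGF 3 (0.18 against 0.027), Tcf7l2 runs the same way from -0.86 to 1.65, and Wnt7b is lowest, at -0.44, in VEGF 1 and VEGF 2.

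The same covariate changed the members unequally. At an unadjusted limma p under 0.05 it left 3 of the 44, Wnt7a, Dact1 and Znrf3, or 6.82% beside 12.3% of all genes. Wnt7b then differed by -0.10, Fzd2 by -0.073 and Rspo3 by 0.018, while Sfrp2, Wif1, Dkk3 and Lgr5, among others, turned sign. Wnt7a was at -0.23 against -0.37 without the covariate, Dact1 at -0.28 against -0.34, Znrf3 at 0.16 against 0.19, Wnt8b at 0.20 against 0.22 and Fzd5 at -0.12 against -0.13. Without control 2, VEGF 1 and VEGF 2, the 3 arrays of highest thalamus means, Wnt7a differed by -0.27, Wnt7b by -0.095, Wnt8b by 0.23, Dact1 by -0.27, Znrf3 by 0.15 and Wnt3 by 0.16, on 3 control and 2 VEGF arrays. These 2 fits were no separate evidence of each other, since both rest on the same marker values.

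**Figure D5:**
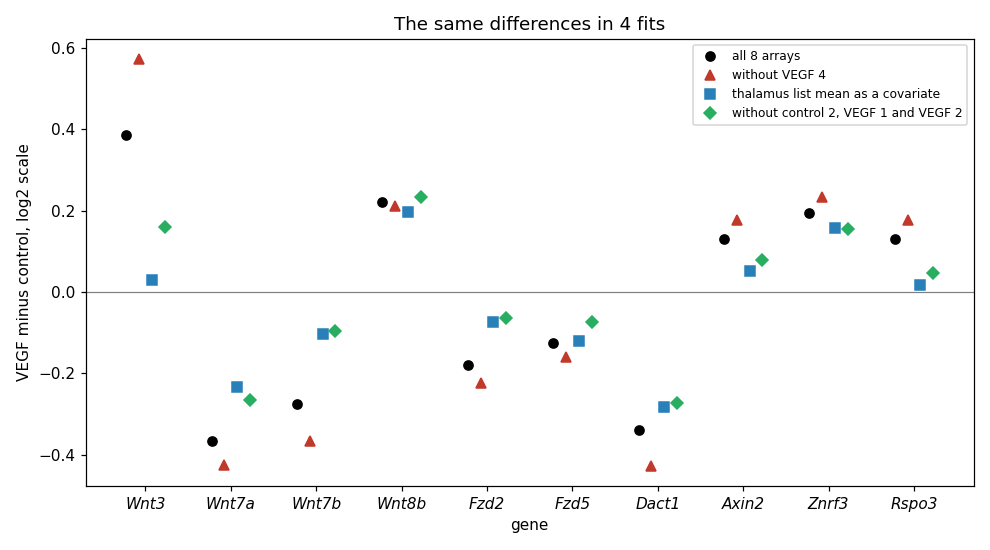
The difference VEGF minus control on the log2 scale (y axis) is given for 10 Wnt genes (x axis) in 4 fits, namely all 8 arrays, without VEGF 4, with the mean of the thalamus list as covariate, and without control 2, VEGF 1 and VEGF 2. Wnt3 is at 0.38 in the first fit and at 0.029 with the covariate, Wnt7b at -0.28 and -0.10, and Wnt8b between 0.20 and 0.23 in these 4 fits, none of which leaves out control 1 alone.

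The rest of the pathway was read from a list of 70 other Wnt genes, all measured. Of these 25 were higher, beside 43.3% of all genes, and 45 lower, beside 56.7%, with a median difference of -0.028. None passed over all genes. At an unadjusted limma p under 0.05 there were 19 or 27.1%, beside 12.5% of all genes, with 3 higher (4.62% of all genes) and 16 lower (7.84%). In 13 or 18.6% the groups did not overlap, beside 6.84% of all genes, with 2 higher (2.13%) and 11 lower (4.71%). The 3 of smallest p on the higher side were Ccnd1, a G1 cyclin and Wnt target, Lef1, and Tpbg, a membrane glycoprotein that restrains canonical signals. Lef1 and Ccnd1 were known from earlier results of these data when the list was drawn up. The count on the higher side is thus no separate evidence. Ccnd1 was at -0.24, -0.16, -0.058 and -0.20 in control and at 0.080, 0.11, 0.18 and 0.058 in VEGF, and Tpbg differed by 0.17 with an SE of 0.0624. On the lower side they were Porcn, Pygo1 and Amer2. Porcn, the acyltransferase that every Wnt needs for secretion, was at 0.11, 0.090, 0.047 and 0.055 in control and at -0.11, -0.27, -0.29 and -0.047 in VEGF, a difference of -0.25 with an SE of 0.0571 (limma, p = 0.00159, adjusted p = 0.243, and exact permutation p = 0.0286). Pygo1, a nuclear partner of beta-catenin, was between 0.043 and 0.18 in control and between -0.096 and -0.043 in VEGF, and Amer2, an adaptor of the destruction complex made in neural tissue, between 0.026 and 0.15 against -0.086 and -0.026. In Ccnd1, Porcn, Pygo1 and Amer2 all 4 VEGF arrays lay outside the control range, VEGF 4 included, and with the thalamus covariate their differences were 0.27, -0.24, -0.15 and -0.16 against 0.27, -0.25, -0.18 and -0.16.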

How the data were processed

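RNA of brain cortex was hybridised to 8 Affymetrix arrays from 120 ng of total RNA, per the labels' protocols. The deposited values are log values, taken as log2 from their range because the base is unstated, and every probe set was centred on its median over the 8 arrays. Affymetrix Expression Console and build mm8 are named in the submitters' processing notes, without the background correction or summary method. Of 28853 probe sets, 21789 had 1 symbol, 1621 several and 5443 none, and 21698 of the 21789 were matched by Entrez identifier to RefSeq (GRCm38.p6). Probe sets with several symbols were left out and those of a gene averaged, giving 19938 genes.

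Groups and replicate numbers came from the titles. The test was limma 3.58.1 (R 4.3.3), VEGF minus control, no covariates, Benjamini-Hochberg adjustment over all genes, threshold 0.05, with 3.12 prior and 6 residual degrees of freedom, and it was tested on simulated data. SE is that of the moderated fit. Single genes were also compared by exact permutation over 70 arrangements. The series text names an unpaired t-test in GeneSpring, run here as the methods' t-test. No filter on brightness was possible, and the number of arrays limits the precision.

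Members and lists were chosen with earlier results of these data known. Array values are given for Wnt genes whose groups do not overlap, those at an unadjusted p under 0.05 and the 3 of smallest p in each role. The other pathway genes named are the 3 of smallest p in each direction with Lef1, Tcf7l2, Ccnd1, Adgra2 and Reck. For these the text gives array values, group ranges or only the difference. Alternatives were the replicate block, median centring, quantile normalization, a robust prior (a trend is void on centred values), array weights, a sex index or the thalamus list mean as a covariate, the t-test, single probe sets and leaving out each array. Leaving out the 3 female arrays or the 3 arrays of highest thalamus means was added after seeing the data. Lists whose ranges are not given elsewhere had the following means, control against VEGF. They were -0.084 to 0.25 against -0.22 to 0.17 for choroid plexus (8 of 10 genes measured) and -0.083 to 0.21 against -0.19 to 0.26 for hippocampus. For Cajal-Retzius cells they were -0.16 to 0.15 against -0.086 to 0.31, and for meninges -0.20 to 0.16 against -0.44 to 0.12. For pericytes they were -0.14 to 0.12 against -0.23 to 0.031, and for erythroid genes (7 of 9 measured) -0.17 to -0.016 against -0.011 to 0.74.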

Additional observations from a re-analysis of the deposited data

Results flagged for a closer look

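A single array lay far from the other 3 of its group, by Dixon's test, in 7 of 106 groups tested, where chance gives about 1 in 20, or 5.3. In the control group, Wnt3 was at 0.27 and Lef1 at 0.074 in control 2, above the other control arrays, Znrf3 was at -0.0012 in control 3, above 3 arrays at -0.090, and Tpbg was at -0.27 in control 1, below the rest. In the VEGF group, Wnt5b was at -0.24 in VEGF 2, and Fzd6 was at -0.45 and Adgra2 at -0.33 in VEGF 3, each below the other VEGF arrays.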

How the results depend on the processing

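Over 18 alternatives, 19 of the 44 Wnt genes kept their sign in each, among them all 7 with an unadjusted p under 0.05. The replicate block, the robust prior and the t-test leave each difference unchanged, so they could not turn a sign. The 7 were picked from these same arrays, so their kept signs are no separate evidence. The number of genes past the adjusted threshold was 0 to 10 when each array was left out, 10 of them without VEGF 4, and of Wnt genes 0 to 1, Dact1 without VEGF 4. It was 1 gene without the 3 arrays of highest thalamus means. Wnt genes at an unadjusted p under 0.05 were 4 to 11 when each array was left out, against 7 (12.5% of all genes) with all arrays. They were 11 without VEGF 4 (14.4% of all genes), and 4 without control 1 (7.65%), control 4 (8.16%) or VEGF 1 (13.6%). They were 3 with the thalamus covariate (12.3%), 3 by the methods' t-test (10.6%) and 4 without the 3 arrays of highest thalamus means (14.0%). The deviations of same-numbered arrays correlated with r of 0.052, -0.13, 0.454 and 0.301 for numbers 1 to 4, control 3 and control 4 correlating best with their own number and control 1 and control 2 not. As this held for only some numbers and the labels state no pairing, the numbers were not taken as pairs. With the replicate block 8 Wnt genes had an unadjusted p under 0.05, 0 passed after adjustment, and 2649 of all genes against 2484 had an unadjusted p under 0.05. Signs turned as follows, and the cause was not tested. With quantile normalization Apcdd1 was at 0.014 and Adgra2 at 0.049. With array weights Wnt9a was at 0.017 and Adgra2 at 0.0021. With the sex index Wnt9a was at 0.0013, Apcdd1 at 0.020 and Adgra2 at 0.031. With the thalamus covariate Fzd4 was at -0.018, Fzd6 at -0.072, Fzd8 at 0.060, Fzd10 at -0.00076, Lrp5 at 0.020, Dkk2 at -0.0034, Dkk3 at -0.0049, Sfrp2 at -0.025, Wif1 at -0.022, Lgr5 at -0.054 and Notum at -0.0029. Without the 3 female arrays Wnt5b was at 0.0077, Wnt9a at 0.012, Rspo1 at 0.015 and Adgra2 at 0.031. Without the 3 arrays of highest thalamus means Wnt4 was at 0.0014, Wnt5b at 0.039, Wnt9a at 0.032, Wnt11 at 0.087, Fzd4 at -0.012, Fzd6 at -0.090, Fzd7 at 0.11, Fzd8 at 0.040, Lrp5 at 0.0056, Ctnnb1 at -0.00054, Rspo2 at -0.064 and Lgr5 at -0.11. When each array was left out, the range crossed 0 for Wnt2b (-0.044 to 0.076), Wnt5b (-0.082 to 0.024), Wnt9a (-0.047 to 0.019), Wnt11 (-0.089 to 0.027), Fzd3 (-0.0035 to 0.037), Fzd4 (-0.015 to 0.078), Fzd6 (-0.046 to 0.16), Ctnnb1 (-0.0015 to 0.019), Tcf7l1 (-0.017 to 0.14), Apcdd1 (-0.092 to 0.025), Dkk2 (-0.011 to 0.091), Sfrp5 (-0.083 to 0.022), Rnf43 (-0.011 to 0.034), Notum (-0.00098 to 0.084), Adgra2 (-0.059 to 0.079) and Reck (-0.095 to 0.026). Signal over background is unknown because the values are centred.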
